A study of Mus musculus with 4 samples.

Results

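The proteasome is the barrel-shaped protease that cuts up proteins marked with ubiquitin. Its mRNAs were followed here through liver mononuclear cells of mice with and without hepatitis caused by concanavalin A (ConA), a plant lectin that stimulates T cells. All gene symbols that begin with Psma, Psmb, Psmc, Psmd or Psme and a digit were taken, and the 3 immunoproteasome genes Psmb8, Psmb9 and Psmb10 were left out. This gave 42 members of the 31053 genes counted. A unique molecular identifier (UMI) marks each captured RNA molecule, and 41 members had at least 1 UMI in the 4 libraries together. Psmb11, the catalytic subunit of the thymus, had 0 UMIs, and Psma8, a copy of Psma7 known from the testis, had 24.

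C57BL/6 mice of 8 to 10 weeks were used. One group is labelled naïve (Naïve), and whether its mice received a vehicle injection is not given. The others received ConA followed by vehicle (ConA+Veh), by TCDD (ConA+TCDD) or by FICZ (ConA+FICZ). TCDD is a dioxin and FICZ a tryptophan photoproduct, and both are ligands of the aryl hydrocarbon receptor (AhR), a transcription factor that small molecules activate. The ConA groups were taken 24 hours after ConA, by dissociation of the liver, a density gradient and lysis of red cells. Each group had 1 library, and the number of mice in a library is not given, so no difference below has a replicate check and no p-value is given.

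The symbol rule is wider than the label "constitutive". It takes in Psme1 and Psme2, which interferon gamma is known to induce, Psme2b, a copy of Psme2, and Psmc3ip, a recombination factor of meiosis that is no proteasome subunit. It also takes in Psmd5, Psmd9 and Psmd10, which are chaperones that help to build the particle. Without Psmc3ip, Psma8, Psmb11 and Psme2b, the log2 ratio of the sum in B-like cells given below is 0.91 in place of 0.92, and in T-like cells 0.59 in place of 0.60.

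The core particle of the proteasome is a stack of rings, with alpha subunits (Psma genes) at the ends and beta subunits (Psmb genes) within. Of the beta subunits Psmb5 cuts after hydrophobic, Psmb7 after basic and Psmb6 after acidic residues. The regulatory particle docks on the core: its base holds a ring of ATPases (Psmc genes), which unfold the substrate, and its non-ATPase subunits (Psmd genes) bind ubiquitin and remove it. Instead of the regulatory particle, the core may bind the activators PA28αβ (Psme1 and Psme2), PA28γ (Psme3) or PA200 (Psme4). Proteasome genes are spread over the genome and are known to be transcribed in concert, among others by the transcription factor encoded by Nfe2l1, which binds antioxidant response elements.

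The members lay on 16 chromosomes, some of which held several members. A promoter of 250 bases before to 50 after the start (RefSeq, GRCm38.p6) was at hand for 35 of the 42 members, in 38 windows. Psma8, Psmb1, Psmb2, Psmb7, Psmc3, Psmd3 and Psmd7 had none in the table. Below, the promoter of the catalytic subunit Psmb6 is shown because its antioxidant response core, TGACNNNGC, in capitals, ends at the last base before the start. The promoters of Psmd11, a lid subunit, and Psmd2, a ubiquitin receptor of the base, are shown for the ETS core, CCGGAAG, whose reverse complement stands in capitals 4 and 19 bases before the start. These last 2 were chosen after the motif shares had been seen. All 3 are on the plus strand and end at the base before the start.
Psmb6, chr11:70525107-70525356: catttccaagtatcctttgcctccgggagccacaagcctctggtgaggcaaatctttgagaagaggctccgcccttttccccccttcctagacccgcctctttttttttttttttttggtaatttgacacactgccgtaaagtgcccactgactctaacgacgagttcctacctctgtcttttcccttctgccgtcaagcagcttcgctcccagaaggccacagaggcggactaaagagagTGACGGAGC
Psmd11, chr11:80428465-80428614: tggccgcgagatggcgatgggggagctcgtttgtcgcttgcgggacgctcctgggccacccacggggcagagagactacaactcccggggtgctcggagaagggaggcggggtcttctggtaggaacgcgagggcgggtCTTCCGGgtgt
Psmd2, chr16:20651502-20651651: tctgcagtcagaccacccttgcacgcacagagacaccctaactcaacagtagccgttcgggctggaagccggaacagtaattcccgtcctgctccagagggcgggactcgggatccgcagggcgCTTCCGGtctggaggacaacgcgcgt

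The letters of 6 motifs were searched on both strands of the whole window. The ETS core CCGGAAG stood in 36.8% of the 38 member promoters, against 18.7% of the promoters of genes with at least 100 UMIs here and 8.86% of all promoters. It was found in 6 of 12 non-ATPase genes and 3 of 5 ATPase genes, but in 1 of 7 alpha genes and 0 of 4 beta genes. The antioxidant core TGAGNNNGC stood in 34.2% of the member promoters, against 19.7% and 17.6%, and TGACNNNGC in 15.8%, against 14.5% and 12.4%. CCAAT stood in 36.8%, against 38.0% and 37.4%, and was present in 5 of 7 alpha genes. The GC box GGGCGG stood in 57.9%, against 62.3% and 35.7%. The E2F cores TTCGCGC or TTGGCGC stood in 5.26%, against 7.16% and 3.89%. Matches may share letters: the free letters N of the antioxidant cores can lie on any other motif, the GC box can share its end with the ETS core, and CCAAT on one strand can overlap TTGGCGC on the other. A match of letters is a description of the window and does not show that a factor binds there.

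Values of the 4 libraries are given in the order Naïve, ConA+Veh, ConA+TCDD, then ConA+FICZ. The libraries held 2086, 2779, 1880 and 2555 cells, with 5952445 to 19252211 UMIs and a median of 2161 UMIs per cell in Naïve against 3147 to 3984 after ConA. Cells were sorted into types by 12 lists of marker genes, none of which is a member, and are called B-like, T-like and so on. In the 4 libraries 10.2%, 18.9%, 30.6% and 16.9% of cells joined no type, so ConA+TCDD lost the largest share. A cell stayed out when it held too few markers of a list or too many of another. In the 4 libraries 27, 13, 4 and 212 droplets held the mRNAs of hepatocytes, which the preparation is meant to remove. Between 4 and 15 cell barcodes were shared by any pair of libraries. Levels are given as UMIs per 1000000 UMIs (CPM) of all cells of a type, with 95% exact Poisson intervals for sums and exact binomial intervals for ratios, which cover counting error only. In this assay an RNA molecule is counted once at its 5′ end, so that levels of members are on a scale of molecules.

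The ConA libraries held a higher share of proteasome mRNA than Naïve in most types of liver mononuclear cell. All members together made up 0.484% of the UMIs of Naïve and 0.803%, 0.820% and 0.822% of those of the ConA libraries. With the cell types of every library weighted as in ConA+Veh, the log2 ratio of ConA+Veh over Naïve was 0.64, against 0.73 as observed.

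Of the 4 types with the most cells, B-like cells showed the widest gap when all their cells were kept. Their summed members stood at 4024 CPM in Naïve, 7587 in ConA+Veh, 8406 in ConA+TCDD and 7607 in ConA+FICZ, from 1082, 810, 374 and 754 cells. The 3 ConA libraries all lay far above Naïve, and the log2 ratio of ConA+Veh over Naïve was 0.92 (0.88 to 0.95), a 1.89-fold rise. In T-like cells the sums were 5177, 7842, 8217 and 8739 CPM in the same order, from 478, 754, 594 and 502 cells. The ratio there was 0.60 (0.57 to 0.63), or 1.51-fold. NK-like cells had 4962, 7116, 6463 and 6812 CPM, with a ratio of 0.52 (0.42 to 0.62), the least precise of these types. Their 92 Naïve cells held 189447 UMIs, the fewest of these types. Cells like mononuclear phagocytes, the macrophages, monocytes and dendritic cells, were already high in Naïve, at 7857 CPM, and reached 10403, 10235 and 10162 CPM after ConA. Their ratio was 0.40 (0.35 to 0.46), but it became 0.98 when cells with more than 2 times the median UMIs were left out and 0.77 when every cell weighed the same.

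**Figure D1:**
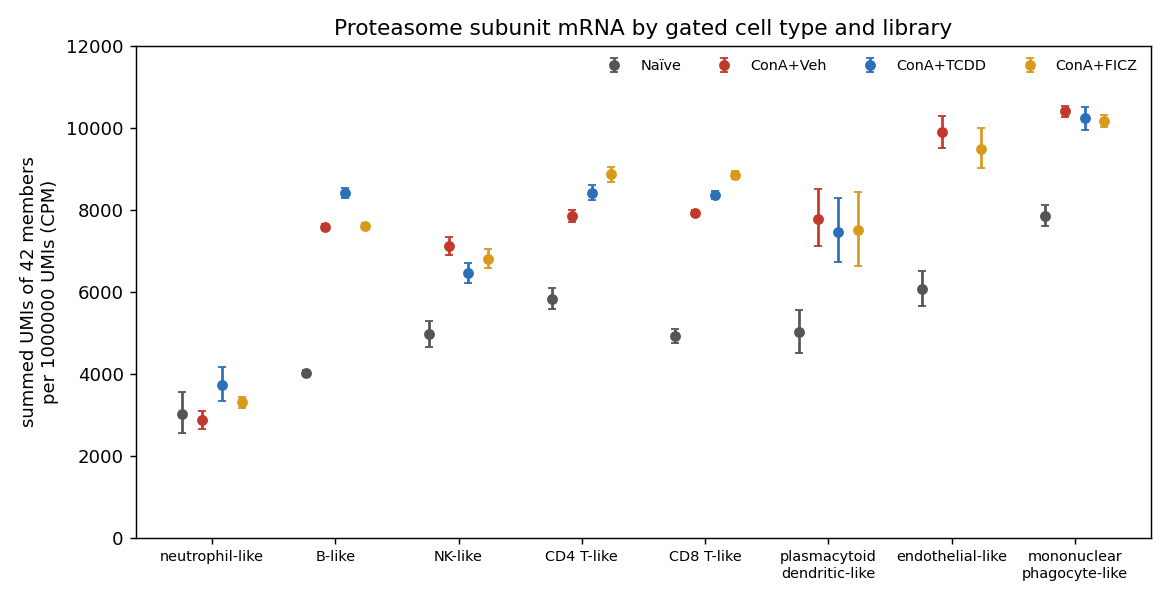
Summed UMIs of the 42 members per 1000000 UMIs (CPM) in 8 gated cell types, with a point for each library and bars for the 95% exact Poisson interval, which covers counting error only; types with fewer than 10 cells in a library have no point there. The ConA libraries lie above Naïve in every type shown but neutrophil-like cells, which stay between 2864 and 3728 CPM.

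Among the smaller types, endothelial-like cells went from 6075 CPM in Naïve to 9895 in ConA+Veh, a log2 ratio of 0.70 (0.59 to 0.82) with 42 and 62 cells. Cells like plasmacytoid dendritic cells, the main producers of type I interferon, went from 5019 to 7780 CPM, a ratio of 0.63 (0.43 to 0.83) with 19 and 17 cells. Neutrophil-like cells had the lowest level of the immune types and no such gap. They held 3020 CPM in Naïve, 2864 in ConA+Veh, 3728 in ConA+TCDD and 3302 in ConA+FICZ, and their ratio of ConA+Veh over Naïve was −0.08 (−0.34 to 0.19), with 23 and 97 cells. Hepatocyte-like droplets, with a median of 958 to 2121 UMIs per cell, went the other way in ConA+Veh, from 7202 to 4283 CPM, but on 27 and 13 cells. The median of single members there was 162 CPM in Naïve and 79.7 in ConA+Veh. In ConA+FICZ, with 212 such droplets, it was 161 CPM, so the lower level was not seen in that library.

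The gap between T-like and B-like cells was narrower in ConA+Veh than in Naïve. The sum of T-like cells was 1.29-fold that of B-like cells in Naïve and 1.03-fold in ConA+Veh. By the sums above, T-like cells were further above B-like cells in ConA+FICZ than in ConA+Veh, and below them in ConA+TCDD. NK-like cells were below T-like cells in every library. In Naïve that gap was within counting error, at a log2 ratio of −0.06 (−0.16 to 0.04). Against B-like cells, NK-like cells were higher in Naïve and lower in the ConA libraries. Outside the lymphocytes, the sum of phagocyte-like cells was 1.95-fold that of B-like cells in Naïve and 1.37-fold in ConA+Veh. This last change depended on the cells kept. Without cells of more than 2 times the median UMIs, the rise after ConA was larger in phagocyte-like than in B-like cells. Within T-like cells the CD8 T-like cells, cytotoxic cells with Cd8a or Cd8b1 and no Cd4, stood at 4921 CPM in Naïve and 7928 in ConA+Veh, and the CD4 T-like cells, helper cells with the reverse, at 5827 and 7860. The log2 ratios were 0.69 (0.64 to 0.74) and 0.43 (0.36 to 0.50). In Naïve, 3 cycling cells held 84957 of the 347680 UMIs of CD4 T-like cells. At a fixed depth of 1000 UMIs per cell, CD8 and CD4 T-like cells held means of 4.33 and 4.13 member UMIs in Naïve. In ConA+Veh these means were 6.53 and 6.44. The higher CD4 level of Naïve was thus seen in the pooled sums and not per cell.

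Cell division and depth changed together with these levels. Cells with at least 3 of 8 cell cycle genes made up 2.09% of T-like cells in Naïve and 52.5% in ConA+Veh, and 0.277% and 8.77% of B-like cells. The median UMIs per cell went from 2806 to 8399 in T-like and from 2139 to 4283 in B-like cells. In cells without this cycling mark the log2 ratio of ConA+Veh over Naïve was about as large, at 0.64 (0.60 to 0.68) in T-like and 0.89 (0.86 to 0.93) in B-like cells. The mark needs UMIs of 3 genes, so a shallow dividing cell can lack it. T-like cells without it still differed in depth, with medians of 2778 UMIs in Naïve and 4562.5 in ConA+Veh. A part of cell division in the rise was not tested. Within ConA+Veh, cycling T-like cells held 8002 CPM and the others 7401. The 10 cycling T-like cells of Naïve held 8219 CPM, against 4757 in the remaining 468. Counted per cell with no correction for depth, the members were higher by a log2 of 2.20 in T-like and 2.15 in B-like cells of ConA+Veh.

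At a fixed depth of 1000 UMIs per cell, the whole distribution over cells was shifted. A B-like cell held a median of 3 member UMIs in Naïve (10th to 90th percentile 1 to 6) and 6 in ConA+Veh (2 to 11). The medians of ConA+TCDD and ConA+FICZ were 7 and 6. A T-like cell held a median of 4 in Naïve and of 6, 7 and 8 in the ConA libraries. Between 5 and 54 cells of a type and library were too shallow for this measure and were left out.

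**Figure D2:**
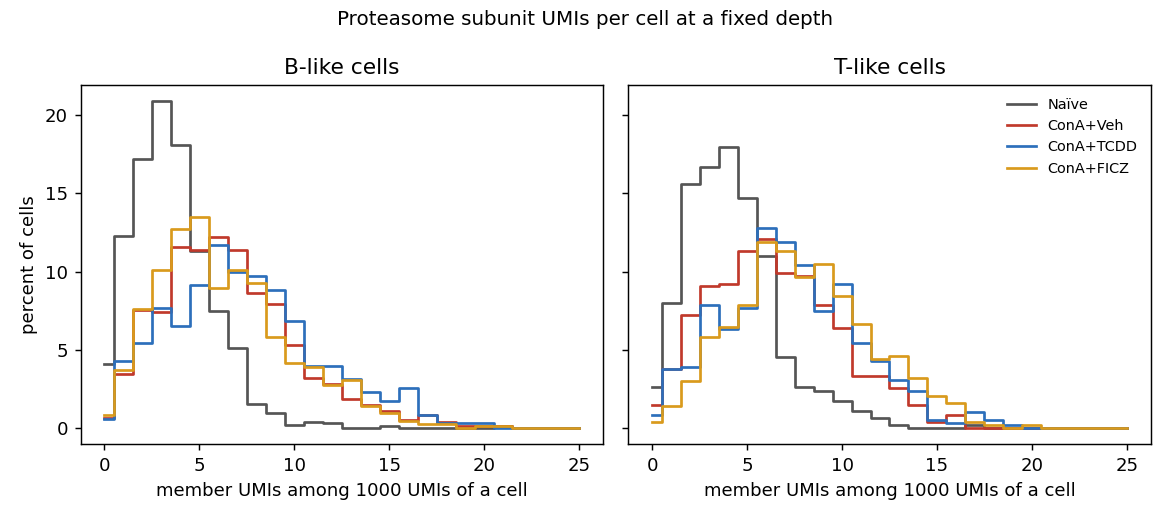
Percent of B-like and T-like cells (y axis) by the number of member UMIs among 1000 UMIs drawn from each cell (x axis), for the 4 libraries. The Naïve curves peak at 3 and 4 UMIs per cell and those of the ConA libraries at 5 or 6.

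Member by member, the rise in B-like cells was wide. A count of 100 UMIs over the 2 libraries compared was reached by 40 of the 42 members, and 31 of these were past 1.5-fold higher in ConA+Veh and 0 past 1.5-fold lower, where 17.3% of all 6151 genes were as much higher and 31.0% as much lower. The median log2 ratio was 0.78 over the members and −0.19 over all genes. In T-like cells 22 of 40 members were past 1.5-fold higher and 0 lower, against 19.5% and 23.0% of 7105 genes, with medians of 0.61 and −0.05. In NK-like cells 12 of 20 members were higher, against 25.8% of 1146 genes (medians 0.64 and 0.16). In phagocyte-like cells 8 of 36 were higher, against 14.1% of 3436 genes (medians 0.32 and 0.05). In NK-like and phagocyte-like cells no member was past 1.5-fold lower, where 14.6% and 13.9% of genes were. In endothelial-like cells 7 of the 11 members measured were higher and 0 lower, against 26.4% and 17.6% of 632 genes. Of the members past 1.5-fold in B-like or T-like cells, 20 were so in both. They were 64.5% of those in B-like cells, where 55.0% of all 40 members were past it in T-like cells. They were 90.9% of those in T-like cells, where 77.5% of all 40 were past it in B-like cells. The overlap over all genes was not counted.

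The alpha ring, which forms the gate of the core, rose as a whole in B-like, T-like and NK-like cells. In phagocyte-like cells 2 of its 7 members were past 1.5-fold higher, where 14.1% of genes were. The ring's median log2 ratio was 0.45 there, and also 0.45 in CD4 T-like cells. All 7 alpha members were past 1.5-fold in B-like, T-like and NK-like cells, against 17.3%, 19.5% and 25.8% of all genes. In NK-like cells Psma3, with 38 UMIs in Naïve, lay at the threshold. The ring's sum went from 910 to 1879 CPM in B-like cells and from 1155 to 2010 CPM in T-like cells, log2 ratios of 1.05 (0.98 to 1.11) and 0.80 (0.73 to 0.87). Psma4 stood at 75.3, 189, 245 and 208 CPM in B-like cells, and its ratio of 1.33 (1.11 to 1.56) was the largest of the ring there. Psma7 was the most abundant alpha member, at 236, 488, 519 and 529 CPM in T-like cells, with a ratio of 1.05 (0.91 to 1.20). Psma7 levels of Naïve and of the ConA libraries were far apart, and those of the ConA libraries close together. In NK-like cells Psma1 and Psma2 were the ring's highest, at 0.99 (0.20 to 1.88) and 0.96 (0.46 to 1.5). Psma2 shares its strand with an overlapping gene model, AW209491, so that reads could have been divided between them.

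In the beta ring 6 of 7 members were past 1.5-fold in B-like cells and 4 of 7 in T-like cells, against 17.3% and 19.5% of all genes. Psmb5, the chymotrypsin-like catalytic subunit (chr14:54614119-54618022, minus strand), stood at 151, 295, 329 and 302 CPM in B-like cells and 174, 358, 372 and 396 CPM in T-like cells. Its log2 ratios of ConA+Veh over Naïve were 0.97 (0.81 to 1.13) and 1.04 (0.87 to 1.21). Psmb6, the caspase-like subunit (chr11:70525367-70527858, plus strand), had 156, 244, 296 and 265 CPM in B-like and 172, 307, 323 and 328 CPM in T-like cells, with ratios of 0.65 (0.48 to 0.81) and 0.83 (0.66 to 1.01). Psmb7, the trypsin-like subunit, was the least abundant of the catalytic members, at 53.8, 74.6, 93.2 and 79.7 CPM in B-like and 54.3, 97.5, 108 and 100.4 CPM in T-like cells, and its ratios were 0.47 (0.19 to 0.76) and 0.84 (0.54 to 1.16). Each catalytic member was lowest in Naïve in both types.

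The structural beta members differed between types. Psmb1 stood at 242 and 389 CPM in B-like cells of Naïve and ConA+Veh, a ratio of 0.68 (0.55 to 0.81), and at 267 and 318 CPM in T-like cells, a ratio of 0.25 (0.11 to 0.40). Psmb1 was also the member with the largest ratio in NK-like cells, 1.07 (0.54 to 1.64), from 174 and 366 CPM. Psmb3 had 207 and 425 CPM in B-like and 318 and 408 CPM in T-like cells, ratios of 1.04 (0.90 to 1.18) and 0.36 (0.23 to 0.49). In phagocyte-like cells Psmb2 and Psmb3 led the ring, at 0.80 (0.50 to 1.11) and 0.76 (0.51 to 1.01). These differences between types were not tested, since each type has 1 library per group.

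The catalytic subunits of the core are replaced in part by Psmb8, Psmb9 and Psmb10, the immunoproteasome. Of the UMIs of the 6 catalytic genes these 3 held 68.6%, 58.0%, 51.1% and 55.8% in T-like cells of the 4 libraries, and 66.8%, 68.1%, 61.3% and 65.8% in B-like cells. In T-like cells their own log2 ratios of ConA+Veh over Naïve were 0.35, 0.10 and 0.18, so the share was lower without lower CPM of these 3. Those of ConA+TCDD over ConA+Veh were −0.30, −0.50 and −0.23.

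The ATPases of the base were raised less than the rings. Their sum went from 422 to 702 CPM in B-like and from 576 to 815 CPM in T-like cells, ratios of 0.73 (0.64 to 0.83) and 0.50 (0.41 to 0.60). In B-like cells 5 of 6 were past 1.5-fold, against 17.3% of all genes, with ratios from 0.51 (Psmc6) to 0.83 (Psmc4). In T-like cells 3 of 6 were, against 19.5% of all genes, and the ratios ran from 0.16 (Psmc2) to 0.69 (Psmc1). In NK-like and phagocyte-like cells the intervals of the ATPase sum reached 0, at 0.09 (−0.20 to 0.39) and 0.13 (−0.02 to 0.29), while those of the alpha ring did not, at 0.77 (0.54 to 1.0) and 0.48 (0.38 to 0.58).

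The 14 non-ATPase members were the most divided. In B-like cells 8 and in T-like cells 6 were past 1.5-fold, against 17.3% and 19.5% of all genes. The sums of the 14 had ratios of 0.60 (0.53 to 0.67) and 0.54 (0.47 to 0.60). Psmd14, the deubiquitinase of the lid, stood at 62.7, 110.4, 138 and 104 CPM in B-like cells and 82.3, 117, 137 and 135 CPM in T-like cells, ratios of 0.82 (0.56 to 1.07) and 0.51 (0.26 to 0.76). Psmd6, another lid subunit, had the largest ratio of the group in T-like cells, 1.06 (0.77 to 1.37), from 56.0 and 117 CPM. Psmd1, the scaffold of the base, had 58.2 and 117 CPM there, 1.01 (0.72 to 1.31), but overlaps another gene model on its strand. The ubiquitin receptors parted. Psmd2, whose promoter is printed above, had 57.5 and 91.4 CPM in B-like and 100.4 and 137 CPM in T-like cells, ratios of 0.67 (0.40 to 0.94) and 0.45 (0.23 to 0.69). Psmd4 (chr3:95032694-95042614, minus strand), which catches ubiquitin chains, had 123, 135, 136 and 147 CPM in B-like and 145, 142, 158 and 145 CPM in T-like cells, ratios of 0.14 (−0.05 to 0.34) and −0.03 (−0.22 to 0.17). In NK-like cells Psmd4 stood at 206 CPM in Naïve and 140 in ConA+Veh, −0.56 (−1.11 to 0.03). In B-like and T-like cells Psmd4 was thus near its Naïve level while most of the particle was above it. The chaperone Psmd5 behaved likewise, at 29.3 and 28.4 CPM in B-like cells (−0.04, −0.45 to 0.38) and 40.1 and 30.6 CPM in T-like cells (−0.39, −0.77 to 0.01).

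**Figure D3:**
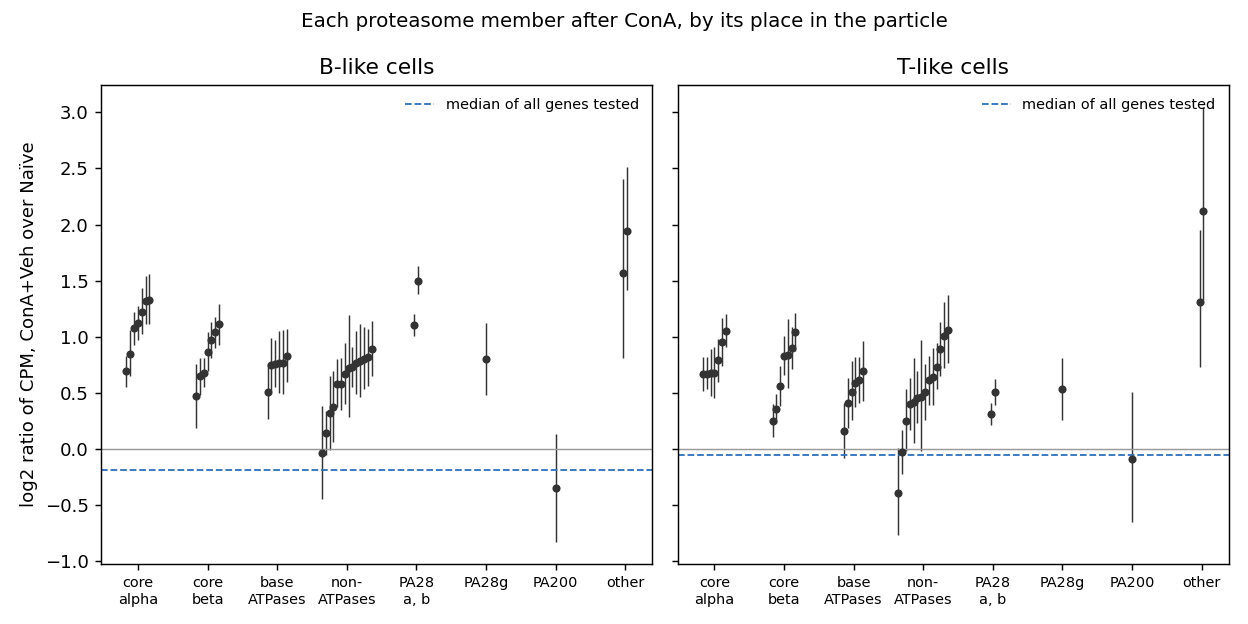
Log2 ratio of CPM in ConA+Veh over Naïve for each of the 40 members with at least 100 UMIs (points, ordered by value within a group), with 95% binomial intervals for counting error, in B-like (left) and T-like cells (right); the dashed line is the median of all genes tested, −0.19 and −0.05. The alpha ring lies between 0.67 and 1.33 in both panels, the non-ATPases reach down to −0.39 (Psmd5 in T-like cells), and PA200 (Psme4) is at −0.35 and −0.09.

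The activators went in different directions. Psme1 and Psme2, which form PA28αβ and lie close together on chromosome 14 (55578123-55581529, plus strand, and 55587441-55591113, minus strand), were the most abundant members in the 4 libraries, with 38469 and 32833 UMIs. In B-like cells Psme1 stood at 426, 915, 850 and 863 CPM and Psme2 at 238, 673, 753 and 719 CPM. Their ratios of ConA+Veh over Naïve were 1.10 (1.01 to 1.20) and 1.5 (1.38 to 1.63). In T-like cells Psme1 stood at 538, 665, 637 and 676 CPM and Psme2 at 396, 563, 501 and 614 CPM, ratios of 0.31 (0.21 to 0.41) and 0.51 (0.39 to 0.62), and neither was past 1.5-fold. The pair was therefore the group with the largest sum ratio of the complexes in B-like cells, 1.26 (1.18 to 1.33), and below the rings and the base in T-like cells, 0.39 (0.32 to 0.47). Without the pair, the ratio of all members was 0.84 in B-like and 0.64 in T-like cells. In neutrophil-like cells of Naïve, whose sum over all members was low, the pair held 1274 CPM from 23 cells, which was 1.92-fold the level of B-like cells. In ConA+Veh it was 0.71-fold, at 1135 CPM from 97 cells against 1588 CPM. Psme2b, the copy of Psme2 on chromosome 11, had the largest ratio in B-like cells, 1.94 (1.42 to 2.51), from 12.6 and 48.5 CPM, and 1.31 (0.73 to 1.95) in T-like cells. Its reads can be confused with those of Psme2 and of 2 overlapping gene models, so its values are uncertain.

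PA28γ, the activator of the nucleus, followed the base: Psme3 had 40.8 and 71.0 CPM in B-like and 70.2 and 102 CPM in T-like cells, ratios of 0.80 (0.48 to 1.12) and 0.53 (0.26 to 0.81). PA200 did not. Psme4 had 24.5, 19.2, 14.8 and 19.3 CPM in B-like and 17.6, 16.5, 19.3 and 16.2 CPM in T-like cells, and its ratios of −0.35 (−0.83 to 0.13) and −0.09 (−0.65 to 0.51) reached 0 on counting error alone. Psmc3ip, the recombination factor, went from 6.31 to 18.8 CPM in B-like and from 7.13 to 31.1 CPM in T-like cells, ratios of 1.57 (0.81 to 2.41) and 2.12 (1.33 to 3.05), on few molecules.

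Genes that work with the proteasome but fall outside the symbol rule did not move as a block. Of the 6 assembly genes, 5 were past 1.5-fold higher in T-like cells of ConA+Veh and 4 in B-like cells, and 1, Akirin2, was lower in each. Of all genes 19.5% were as much higher and 23.0% as much lower in T-like cells, and 17.3% and 31.0% in B-like cells, and the counts of the lists that follow are to be read against these shares. Psmg1, a chaperone of the alpha ring, had the largest ratio in T-like cells, 1.30 (0.85 to 1.79), from 23.6 and 58.3 CPM. Pomp, which matures the beta ring and was picked after its values had been seen, had 124 and 349 CPM in B-like and 236 and 358 CPM in T-like cells, ratios of 1.49 (1.32 to 1.67) and 0.60 (0.45 to 0.75). Among the 7 partners of the particle 1 was higher in each type, and 2, Adrm1 and Ube3c, were lower in B-like cells. The higher was Uchl5, a deubiquitinase bound to the base, with 53.2 and 116 CPM and a ratio of 1.12 (0.82 to 1.44) in T-like cells. Of the 5 genes tied to transcription of the subunits, 0 were past 1.5-fold higher, and 1 in B-like cells, Nfe2l1, and 2 in T-like cells, Nfe2l2 and Ngly1, were lower. Nfe2l1 itself had 41.9 and 19.8 CPM in B-like cells, −1.08 (−1.49 to −0.67), and 27.4 and 23.1 CPM in T-like cells, −0.25 (−0.70 to 0.23). These genes, other than by the rule for T-like cells, were named after their values had been seen. All 31 genes together had a median of 0.15 in T-like cells and, over 30 measured, of −0.08 in B-like cells.

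TCDD and FICZ were each compared with ConA+Veh, which both comparisons share. No member was past 1.5-fold higher in B-like, T-like, NK-like or phagocyte-like cells under either ligand. Among all genes 2.97% and 1.32% were as much higher in B-like and T-like cells of ConA+TCDD, 1.60% and 4.38% in NK-like and phagocyte-like cells, and 3.27%, 1.91%, 3.15% and 8.48% in the 4 types of ConA+FICZ. In B-like and T-like cells 0 members were past 1.5-fold lower, where 3.62% and 3.35% of genes were for ConA+TCDD and 2.55% and 5.19% for ConA+FICZ. The summed members of ConA+TCDD over ConA+Veh had a log2 ratio of 0.15 (0.12 to 0.17) in B-like, 0.07 (0.05 to 0.08) in T-like, −0.14 (−0.21 to −0.07) in NK-like and −0.02 (−0.07 to 0.02) in phagocyte-like cells. Those of ConA+FICZ over ConA+Veh were 0.00 (−0.02 to 0.03), 0.16 (0.14 to 0.17), −0.06 (−0.13 to 0.00) and −0.03 (−0.06 to 0.00). None was past 1.5-fold. Several depend on which cells were kept. Without cells of more than 2 times the median UMIs, B-like cells gave 0.09 for ConA+TCDD and −0.16 for ConA+FICZ, and T-like cells 0.14 and 0.25. Counted per cell without correction for depth, T-like cells of ConA+TCDD were at −0.06.

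**Figure D4:**
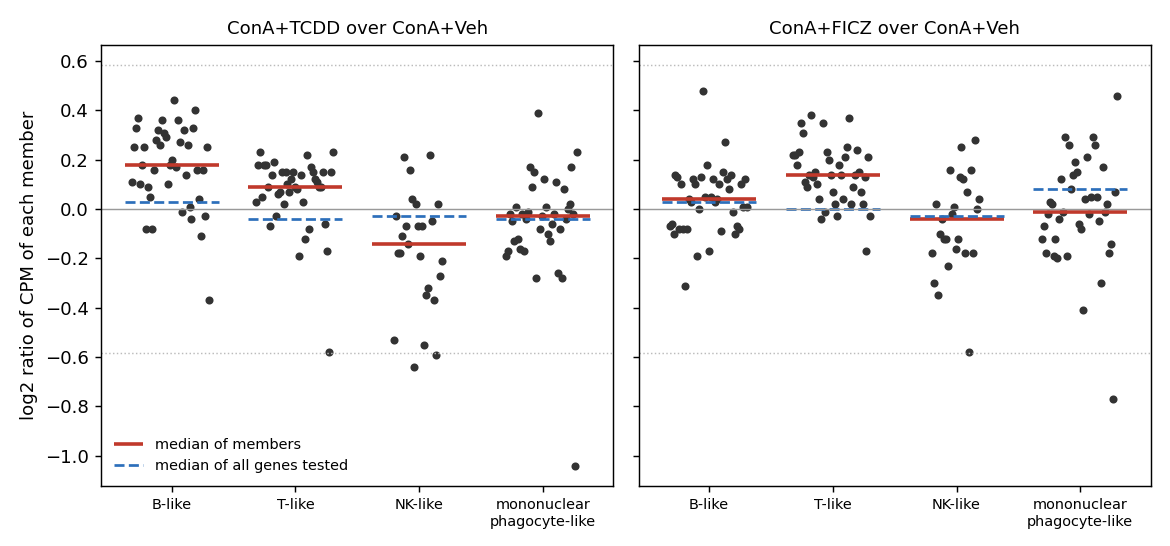
Log2 ratio of CPM of each member with at least 100 UMIs (points, in alphabetical order within a type) for ConA+TCDD (left) and ConA+FICZ (right) over ConA+Veh in 4 cell types; solid bars are medians of members, dashed bars medians of all genes tested, and dotted lines mark 1.5-fold. In ConA+TCDD the members' median is 0.18 in B-like and −0.14 in NK-like cells, and the point at −1.04 in phagocyte-like cells is Psme2b.

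In B-like cells the members' median for ConA+TCDD was 0.18, against 0.03 for all 5528 genes. There 33 of 40 members were higher, where 54.1% of all genes were. Psmd1 had 68.9 and 93.7 CPM in ConA+Veh and ConA+TCDD, 0.44 (0.18 to 0.70), Psmd7, a lid subunit, 126 and 166 CPM, 0.40 (0.20 to 0.59), and Psma4 189 and 245 CPM, 0.37 (0.21 to 0.53). Psme4 was the lowest, with 19.2 and 14.8 CPM, −0.37 (−1.01 to 0.23), followed by Psme1 and Psmb4 at −0.11 (−0.19 to −0.03) and −0.08 (−0.24 to 0.08), and PA28αβ as a pair was at 0.01 (−0.05 to 0.07). The gap was larger in cells that held a UMI of Cd86, Mreg or Cd200, markers of activated B cells. These stood at 7998 CPM in ConA+Veh and 9234 in ConA+TCDD, a ratio of 0.21 (0.17 to 0.24), while the others had 7266 and 7484 CPM, 0.04 (0.00 to 0.08). The difference between these subsets was not tested, and the subsets also differed in depth. Cells with such a UMI had medians of 6303 and 4580 UMIs per cell in ConA+Veh and ConA+TCDD, and the others 3720.5 and 3252. Cycling cells made up 15.6% and 8.81% of the former, and 5.47% and 6.51% of the latter.

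In T-like cells the members' median was 0.09 for ConA+TCDD, against −0.04 for all 7728 genes. There 32 of 40 members were higher, where 43.3% of all genes were. For ConA+FICZ the median was 0.14, against 0.00 for 7819 genes, with 35 of 40 members and 49.9% of all genes higher. For ConA+TCDD, Psma3 had 354 and 416 CPM, 0.23 (0.16 to 0.31), Psme4 16.5 and 19.3 CPM, 0.23 (−0.14 to 0.58), and Psmd14 117 and 137 CPM, 0.22 (0.09 to 0.36). Psme2 had 563 and 501 CPM, −0.17 (−0.23 to −0.10), Psmd10 30.9 and 27.1 CPM, −0.19 (−0.47 to 0.10), and Psme2b 35.3 and 23.6 CPM, −0.58 (−0.87 to −0.29). For ConA+FICZ the largest ratios were 0.38 (0.31 to 0.44) for Psmb3, from 408 and 529 CPM, 0.37 (0.22 to 0.52) for the lid subunit Psmd3, from 85.4 and 110.3 CPM, and 0.35 (0.25 to 0.45) for Psma5, from 187 and 239 CPM. The lowest were −0.17 (−0.43 to 0.09) for Psme2b, −0.04 (−0.18 to 0.09) for Psmc1 and −0.03 (−0.31 to 0.23) for Psmd10. Cycling cells made up 52.5%, 34.3% and 35.1% of T-like cells in the ConA libraries. The ratio of ConA+FICZ over ConA+Veh was 0.13 (0.11 to 0.15) in cycling and 0.24 (0.21 to 0.27) in the other T-like cells. That of ConA+TCDD was 0.07 (0.05 to 0.09) and 0.10 (0.07 to 0.13).

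In NK-like cells 2 of 25 members were past 1.5-fold lower in ConA+TCDD, against 3.34% of 1438 genes. These were Psmb4, with 209 and 134 CPM, −0.64 (−1.11 to −0.19), and Psmd4, with 140 and 93.0 CPM, −0.59 (−1.16 to −0.04). Psmc4 was at −0.55 (−1.15 to 0.04). Psmd11, Psma6 and Psmb2 were the highest, at 0.22, 0.21 and 0.16, each with an interval across 0. In ConA+FICZ no member was past 1.5-fold lower among 25, against 5.27% of 1462 genes. Psmd14 was the lowest at −0.58 (−1.12 to −0.06), followed by Psma4 at −0.35 (−0.84 to 0.13) and Psma2 at −0.30 (−0.62 to 0.00). The highest were Psmd8 at 0.28, Psmc4 at 0.25 and Psmb3 at 0.16, again with intervals across 0.

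In phagocyte-like cells Psme2b was the only member past 1.5-fold under either ligand among those with at least 100 UMIs. It had 31.9, 64.5, 31.5 and 37.7 CPM in the 4 libraries, so that ConA+Veh alone was high. Its ratios over ConA+Veh were −1.04 (−1.88 to −0.28) for ConA+TCDD and −0.77 (−1.23 to −0.34) for ConA+FICZ, where 10.1% of 3380 and 2.96% of 4530 genes were as much lower. Psme2 itself had 598, 974, 958 and 886 CPM. For ConA+TCDD, from 45 cells, Psmc3 was the highest at 0.39 (0.10 to 0.68), followed by Psme3 at 0.23 (−0.29 to 0.72) and Psme1 at 0.17 (0.03 to 0.31), and Psmd4 and Psmc2 were both at −0.28. For ConA+FICZ Psme4 was at 0.46 (−0.06 to 0.98), Psmb6 at 0.29 (0.13 to 0.45), Psmd2 at 0.29 (0.07 to 0.51), Psmd10 at −0.41 (−0.94 to 0.10) and Psmd6 at −0.30 (−0.57 to −0.03).

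Of the 31 pathway genes outside the rule, 0 were past 1.5-fold in either direction in T-like cells of either ligand, and their medians were 0.11 for ConA+TCDD and 0.10 for ConA+FICZ. Of all genes there, 1.32% and 1.91% were as much higher and 3.35% and 5.19% as much lower. In NK-like cells, where 8 and 9 were measured, there were also 0, against 1.60% and 3.15% of genes higher and 3.34% and 5.27% lower. In B-like cells of ConA+TCDD 2 of 27 were higher, Nfe2l1 at 0.65 (0.17 to 1.12) and Ddi2 at 0.80 (0.28 to 1.31), and 0 lower, against 2.97% and 3.62% of all genes. In B-like cells of ConA+FICZ 1 of 31, Nploc4, was higher, at 0.65 (0.12 to 1.20), against 3.27% of all genes. There 2, Nfe2l2 and Sel1l, were lower, at −0.59 (−0.94 to −0.24) and −0.69 (−1.15 to −0.25), against 2.55%. In phagocyte-like cells of ConA+TCDD 1 of 20, AI314180, was higher, at 0.69 (0.10 to 1.26). There 2, Nfe2l2 and Sel1l, were lower, at −0.73 (−1.12 to −0.35) and −0.80 (−1.65 to −0.04). Both counts were close to the shares of all genes, 4.38% higher and 10.1% lower. With ConA+FICZ 0 of 27 were past 1.5-fold in either direction in phagocyte-like cells, against 8.48% and 2.96%. The genes of B-like and phagocyte-like cells were named after their values had been seen. In T-like cells the largest ratios for ConA+TCDD were those of Akirin2, which helps to bring proteasomes into the nucleus, at 0.43 (0.02 to 0.84), and of the chaperone Psmg4 at 0.37 (0.24 to 0.51). Ngly1, whose product processes the Nfe2l1 factor, was at −0.41 (−0.77 to −0.05) and Ube3c, a ubiquitin ligase on the particle, at −0.26 (−0.64 to 0.11). For ConA+FICZ Psmg1 was at 0.43 (0.25 to 0.61) and the deubiquitinase Usp14 at 0.35 (0.14 to 0.55), while Ube3c was at −0.57 (−0.97 to −0.19) and AI314180, a proteasome adaptor, at −0.44 (−0.70 to −0.19).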

How the data were processed

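Per the labels and the study's methods, the authors prepared 1 library per group with the 10x Genomics 5′ assay and counted UMIs on mm10 with Cell Ranger 3.0.2, the version in the file headers. The deposited values are raw UMI counts, not normalized, for each gene in each barcode. The members and lists were chosen with earlier results of these data known.

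A cell joined a type with at least 3 of 8 markers and 2 more than for any other of 12 lists. No doublet caller was run. UMIs were summed over the cells of a type, and genes with at least 100 UMIs in both libraries together were counted as past 1.5-fold. Named were the catalytic subunits, activators, Psmd2, Psmd4, Psmd14, the 3 highest and lowest members per comparison and type, and the 2 highest and lowest pathway genes in T-like cells. Some results under this rule are not reported here. Intervals came from scipy 1.17.1, sums from numpy 2.4.6 and pandas 2.3.3 under Python 3.11.15, and plots from matplotlib 3.10.9. On simulated counts of ConA+Veh over Naïve with 200 genes changed 2-fold, 99.5%, 98.5%, 97.0% and 95.0% of these were called in B-like, T-like, NK-like and phagocyte-like cells. Of the unchanged genes 1.26%, 2.52%, 2.33% and 3.68% were called. The simulated counts carried counting error only, so they cannot show how far calls would hold between animals. Totals per library were 5952445 to 19252211 UMIs. Alternatives changed the gate, the cells kept, the denominator, the weighting, the members, the filter, the fold and the promoter window.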

Additional observations from a re-analysis of the deposited data

Results flagged for a closer look

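The summed members of ConA+TCDD over ConA+Veh differed in direction between cell types, with log2 ratios of 0.15 in B-like, 0.07 in T-like and −0.14 in NK-like cells. With 1 library per group, the difference was not tested.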

How the results depend on the processing

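Of 144 recomputed log2 ratios of summed members, 93 stayed inside the counting interval of the reported value and 51 left it, and none past 1.5-fold changed its sign. Of 1440 recomputed ratios of single members, 1230 stayed inside, 1303 kept their sign, and of 261 that belong to a member past 1.5-fold 242 stayed past it. For ConA+Veh over Naïve, B-like cells (0.92) gave 0.87 without cells of more than 2 times the median UMIs, 0.87 with equal weight per cell, 0.98 with a total free of mitochondrial, ribosomal and receptor genes, 0.84 without Psme1 and Psme2, and 2.15 per cell with no depth correction. T-like cells (0.60) gave 0.51 with the gate at 1000 UMIs, 0.63 without cells of high mitochondrial share or few genes, 0.77 without cells of many UMIs, 0.64 without cycling cells, 0.69 with equal weight, 0.64 without Psme1 and Psme2, and 2.20 per cell. NK-like cells (0.52) gave 1.35 per cell, and phagocyte-like cells (0.40) gave 0.98 without cells of many UMIs, 0.77 with equal weight and 1.17 per cell. For ConA+TCDD over ConA+Veh, B-like cells (0.15) gave 0.09 without cells of many UMIs, 0.11 with equal weight, 0.08 per cell, and 0.18 both without the most abundant member and without Psme1 and Psme2. T-like cells (0.07) gave 0.10 with the gate at 1000 UMIs, 0.05 without cells of high mitochondrial share, 0.14 without cells of many UMIs, 0.10 without cycling cells, 0.09 with the other total, 0.13 with equal weight, −0.06 per cell and 0.10 without Psme1 and Psme2. Phagocyte-like cells (−0.02) gave −0.14 with the gate at 1000 UMIs, −0.12 without cells of many UMIs, 0.03 with the other total and 0.33 per cell. For ConA+FICZ over ConA+Veh, B-like cells (0.00) gave −0.07 with the gate at 1000 UMIs, −0.16 without cells of many UMIs, 0.04 without cycling cells, 0.03 with the other total, −0.07 with equal weight and −0.04 per cell. T-like cells (0.16) gave 0.23 with the gate at 1000 UMIs, 0.12 without cells of high mitochondrial share, 0.25 without cells of many UMIs, 0.24 without cycling cells, 0.24 with equal weight and 0.34 per cell. NK-like cells (−0.06) gave −0.16 with the gate at 1000 UMIs and −0.18 per cell, and phagocyte-like cells (−0.03) gave 0.01 with that gate, 0.01 without cycling cells, −0.07 with equal weight and −0.19 per cell. The cause of these moves was not tested.

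At 2-fold in place of 1.5-fold, 11 of 40 members in B-like and 6 of 40 in T-like cells were higher in ConA+Veh than in Naïve. In NK-like cells 1 of 20 and in phagocyte-like cells 1 of 36 were. The shares of all genes were 7.22%, 8.63%, 9.86% and 3.81% in the same order. In NK-like and phagocyte-like cells the members' share was thus below that of all genes. At 2-fold 0 were lower in NK-like cells of ConA+TCDD or phagocyte-like cells of ConA+FICZ, against 0.278% and 0.684%. With at least 300 UMIs, 1 of 3 NK-like members was higher in ConA+Veh, against 26.6%, and 0 were lower in NK-like and phagocyte-like cells of ConA+TCDD and phagocyte-like cells of ConA+FICZ, against 1.66%, 7.89% and 2.50%. With at least 30 UMIs, 1 of 37 members was higher in NK-like cells of ConA+TCDD and 1 of 37 in those of ConA+FICZ, against 5.04% and 8.03%. In phagocyte-like cells of ConA+TCDD 1 of 40 was higher, against 9.15%, and in NK-like cells of ConA+FICZ 3 of 37 were lower, against 11.2%. In the 150 bases before the start, TGAGNNNGC stood in 15.8% of member promoters, against 9.92% of those of genes with at least 100 UMIs and 8.83% of all, and CCGGAAG in 34.2%, against 11.9% and 5.52%. No paired analysis was possible because each group has 1 library.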

Other observations

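Cells like granulocyte progenitors, the precursors of neutrophils, held 10654 CPM of summed members in ConA+Veh, from 14 cells, where neutrophil-like cells held 2864 CPM. Of these 14 cells 13 were cycling, against 0 of the neutrophil-like cells, and the median UMIs per cell were 23656.5 and 2244. Division and depth thus differed along with the type. Naïve had 0 cells like granulocyte progenitors. Erythroid-like cells held 218 CPM in Naïve and 2098 CPM in ConA+Veh, from 20 and 65 cells. Their median was 68 and 227 genes per cell. In Naïve these cells held 36623 UMIs in all, and only 4 members had a UMI while 38 had none. The Naïve value is thus near the floor and is no base for a ratio.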
